A study of Mus musculus with 16 samples.

Results

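The 8 mouse genes described here encode thioesterases that remove palmitate and related fatty acids from protein cysteines, or are close relatives of such enzymes: Ppt1, Ppt2, Lypla1, Lypla2, Abhd17a, Abhd17b, Abhd17c and Abhd10. They were taken by name from a table of 48709 gene identifiers, and all 8 were found and passed the filter on low counts in every comparison. The family was chosen by its heart values: Ppt1 was higher in the heart of knockout mice, so the genotype values of heart are given as a description with no test. The liver values of the 2 genotypes were not used in that choice. The comparison of tissues in wild type mice was not used either, but it holds the wild type heart values of Ppt1. Those were part of the heart contrast, so Ppt1 is described there without a test.

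RNA was measured in 4 groups of 4 libraries each: heart of quadruple knockout (QKO) mice, heart of wild type (WT) mice, liver of QKO mice and liver of WT mice. All 8 animals were untreated C57BL/6J females of 3 to 6 months, 4 per genotype, and each gave both tissues. The QKO animals carry targeted alleles of 4 methionine sulfoxide reductase genes, Msra, Msrb1, Msrb2 and Msrb3, whose enzymes return oxidised methionine in proteins to methionine. The labels name neither the alleles nor the relation of the WT animals to the QKO line. RNA came from whole tissue, so fewer cells of a type and less RNA per cell cannot be told apart.

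Palmitoylation attaches a long fatty acid to a protein cysteine through a thioester bond and holds the protein at a membrane. Palmitoyltransferases with a DHHC motif add the group and thioesterases take it off, so that proteins such as Ras and G protein subunits can move between membranes. In the lysosome the same bond is cut during the breakdown of palmitoylated proteins, and in humans loss of PPT1 causes an infantile form of neuronal ceroid lipofuscinosis, a lysosomal storage disease. In heart and endothelium, palmitate is carried by ion transporters, receptors and nitric oxide synthase.

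Total counts per library ran from 42.1 M to 72.6 M in heart and from 37.9 M to 67.9 M in liver, of which protein-coding genes took 9.21 M to 28.2 M in heart and 21.6 M to 40.7 M in liver. The share of counts at nuclear ribosomal RNA loci was 0.245% to 54.4% in QKO hearts and 7.37% to 56.9% in WT hearts, with QKO heart 4 and WT heart 4 the lowest, and 0.317% to 0.984% in the livers. The summed level of 8 cardiomyocyte markers was 49020 to 57800 CPM (counts per 1 M, here of protein-coding counts) in QKO hearts and 39070 to 49810 in WT hearts, and that of 8 hepatocyte markers 75970 to 92070 CPM in QKO livers and 68840 to 83050 in WT livers. Heart libraries held hepatocyte markers at 194 to 404 CPM in QKO and 153 to 830 CPM in WT, and 6 pancreatic acinar markers were at 1.41 to 3.85 CPM in QKO livers, and at 1044 CPM in WT liver 3, 296 CPM in WT liver 4 and 1.30 to 2.78 CPM in the other WT livers. WT liver 4 also stood apart for 6 skeletal muscle markers, which summed to 2.19 to 33.2 CPM in QKO livers, 419 CPM in WT liver 4 and 0.984 to 1.30 CPM in the other WT livers, and for 5 adipocyte markers, which summed to 4.13 to 5.07 CPM in QKO livers, 70.9 CPM in WT liver 4 and 2.55 to 14.8 CPM in the other WT livers. Of the targeted genes, Msrb2 was at 0.355 to 0.665 CPM in QKO hearts and 31.1 to 41.3 CPM in WT hearts, and at 0 to 0.105 CPM in QKO livers and 6.33 to 13.9 CPM in WT livers. Msrb3 was at 20.5 to 25.1 CPM in QKO hearts and 126 to 152 CPM in WT hearts, and at 3.77 to 7.25 CPM in QKO livers and 18.6 to 24.4 CPM in WT livers. Msra was at 18.5 to 23.5 CPM in QKO hearts and 27.1 to 30.8 CPM in WT hearts, and at 73.2 to 82.5 CPM in QKO livers and 122 to 138 CPM in WT livers. Msrb1 was at 48.9 to 72.5 CPM in QKO hearts and 38.8 to 45.3 CPM in WT hearts, and at 150 to 232 CPM in QKO livers and 210 to 255.5 CPM in WT livers. Counts over a whole gene do not show whether part of it is missing.

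The family falls into lysosomal, cytosolic, membrane-bound and mitochondrial enzymes. Ppt1, palmitoyl-protein thioesterase 1, lies at chr4:122836242-122859175 on the plus strand of GRCm38 (mm10), and its exons overlap those of Cap1 on the opposite strand over 129 bp. Ppt2, a lysosomal relative that acts on fatty acyl thioesters but poorly on palmitoylated proteins, lies at chr17:34616662-34628510. The cytosolic acyl-protein thioesterases Lypla1 and Lypla2, also called APT1 and APT2, lie at chr1:4807788-4848410 and chr4:135968224-135972626. The ABHD17 proteins, membrane-bound depalmitoylases known from work on N-Ras and the synaptic protein PSD-95, are encoded by Abhd17a at chr10:80583654-80590341, Abhd17b at chr19:21653185-21685637 and Abhd17c at chr7:84109356-84151893. Abhd10, a mitochondrial depalmitoylase with the antioxidant enzyme Prdx5 as a known substrate, lies at chr16:45729725-45742955. Ppt2 shared 36.6% of its exon bases with the readthrough gene Gm20460 and Lypla1 8.80% with Gm37988, both on the same strand, and Abhd10 shared 11.5% with Gm15591 on the opposite strand. Strand does not separate reads of the stretches shared on the same strand. For those on opposite strands, the strand setting of the counting was not given in the sources used here. Reads of all these stretches therefore could not be assigned with certainty, and their part in the levels per length below was not tested.

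The promoters of Ppt1 and Abhd10 are shown because Ppt1 is the member that differed in heart and because these members held the motifs searched for. Each is the RefSeq window (GRCm38.p6) of 250 bases before to 50 after the transcript start, 5′ to 3′ on the strand of the gene, with motifs in capitals. Ppt1 is chr4:122835977-122836276 on the plus strand and Abhd10 is chr16:45742906-45743205 on the minus strand.
Ppt1: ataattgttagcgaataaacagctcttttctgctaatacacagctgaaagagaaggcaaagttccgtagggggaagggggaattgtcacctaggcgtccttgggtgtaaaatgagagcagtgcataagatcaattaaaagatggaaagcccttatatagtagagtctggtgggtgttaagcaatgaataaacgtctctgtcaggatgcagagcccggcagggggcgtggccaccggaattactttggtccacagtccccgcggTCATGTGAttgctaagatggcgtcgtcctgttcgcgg
Abhd10: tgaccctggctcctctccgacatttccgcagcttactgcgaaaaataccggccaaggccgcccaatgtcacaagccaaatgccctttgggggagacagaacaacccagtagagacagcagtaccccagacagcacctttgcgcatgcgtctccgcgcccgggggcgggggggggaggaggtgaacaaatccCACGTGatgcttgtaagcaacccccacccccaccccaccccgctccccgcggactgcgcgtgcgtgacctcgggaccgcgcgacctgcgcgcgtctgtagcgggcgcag
In Ppt1 the capitals mark TCATGTGA, an M-box of the kind bound by MITF and TFE family factors, which starts at base 14 after the transcript start. In Abhd10 they mark CACGTG, the core of the lysosomal CLEAR element and of other E-boxes, which starts 59 bases before the start. CACGTG reads the same on both strands and was in 7.15% of 32851 RefSeq promoter windows of this length. TCATGTGA, searched on both strands (TCACATGA on the other) and added after the Ppt1 sequence had been seen, was in 0.986% of them, and the 2 motifs do not overlap. Windows were at hand for 7 members, and those of Ppt2, Lypla2, Abhd17a, Abhd17b and Abhd17c held neither motif. A match is a string of letters in this window and not a measured binding site.

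In heart Ppt1 stood apart from the other members. Its level was 19.2, 18.8, 16.8 and 18.2 CPM in QKO hearts, against 12.5, 10.7, 10.3 and 10.7 CPM in WT hearts (replicates 1 to 4, CPM of library sizes scaled within heart by TMM, a trimmed mean of log ratios). Every QKO heart lay above every WT heart. The means were 18.3 ± 1.04 CPM in QKO and 11.05 ± 0.978 CPM in WT (SD, n = 4 each), a 1.65-fold difference and a log2 fold change of 0.72 (SE 0.08). It rested on 4667 counts over the QKO hearts and 2750 over the WT hearts. Within animal number series 47 (replicates 1 and 2) the log2 fold change was 0.71, and within series 48 (replicates 3 and 4) it was 0.74. Without the pair of replicate 4, whose ribosomal RNA share was low, it was 0.71. The summed cardiomyocyte markers given above were higher in 3 of the 4 QKO hearts than in every WT heart; their part in the Ppt1 difference was not tested. Cap1, the actin-regulating gene whose end overlaps that of Ppt1, had a log2 fold change of -0.05 (SE 0.08) in heart, with overlapping levels.

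The other 7 members overlapped between QKO and WT hearts. Ppt2 averaged 5.86 ± 0.498 CPM in QKO hearts and 5.77 ± 0.469 CPM in WT hearts. Lypla1 was at 13.3 to 13.8 CPM in QKO hearts and 11.7 to 15.5 CPM in WT hearts, and Lypla2 at 3.50 to 4.26 CPM in QKO hearts and 2.98 to 4.26 CPM in WT hearts. For both genes the QKO hearts lay within the range of the WT hearts. Abhd17a averaged 6.23 ± 0.314 CPM in QKO hearts and 5.94 ± 0.0957 CPM in WT hearts, Abhd17b 2.58 ± 0.209 CPM in QKO and 2.56 ± 0.179 CPM in WT, and Abhd17c 4.88 ± 0.220 CPM in QKO and 5.13 ± 0.634 CPM in WT. Abhd10 averaged 2.87 ± 0.257 CPM in QKO hearts and 2.77 ± 0.510 CPM in WT hearts (SD, n = 4 each). The log2 fold changes of these 7 ran from -0.07 for Abhd17c to 0.15 for Lypla2, with SEs of 0.08 to 0.14. So 1 of the 8 members passed an adjusted p of 0.05 in heart, where 0.165% of the 16974 genes tested did, and 1 of 8 had every QKO heart above every WT heart, which 2.27% of the genes had; since Ppt1 in heart chose the family, nothing is read from these shares.

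**Figure D1:**
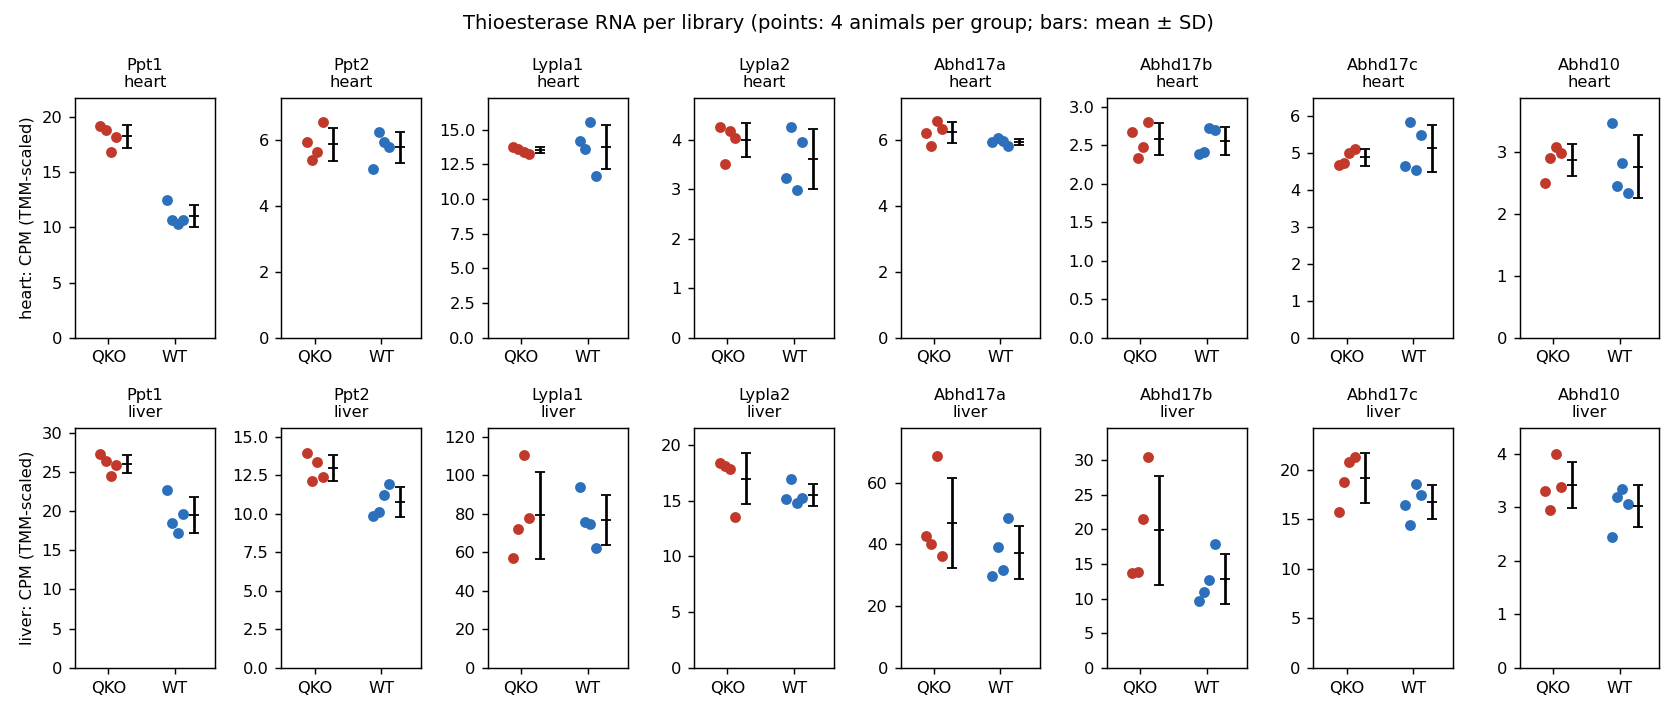
TMM-scaled CPM of each member per library (points, 4 animals per group) with mean and SD (bars), heart above and liver below, QKO left of WT; each panel has its own axis from 0. Ppt1 in QKO hearts lies at 16.8 to 19.2 CPM, above the 10.3 to 12.5 CPM of WT hearts, and the other heart panels overlap.

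In liver no member passed the test between genotypes. Ppt1 was at 27.3, 26.3, 24.4 and 25.9 CPM in QKO livers, against 22.7, 18.4, 17.3 and 19.6 CPM in WT livers, so every QKO liver lay above every WT liver. The means were 26.0 ± 1.18 CPM in QKO and 19.5 ± 2.35 CPM in WT (SD, n = 4 each), a log2 fold change of 0.42 (SE 0.12) with an adjusted p of 0.9997 by edgeR's quasi-likelihood test over 17738 genes. The adjusted p was 0.530 with DESeq2 and 0.147 with all 16 libraries in 1 fit. Within series 47 the log2 fold change was 0.38 and within series 48 it was 0.46, and without WT livers 3 and 4 it was 0.34. The order of the 4 QKO animals by Ppt1 was the same in heart and liver, with replicate 1 highest and replicate 3 lowest, and replicate 1 was highest and replicate 3 lowest in WT animals in both tissues too.

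Ppt2 was the other member without overlap in liver, at 13.9, 12.1, 13.4 and 12.4 CPM in QKO livers, against 9.88, 10.1, 11.2 and 11.9 CPM in WT livers. Its log2 fold change was 0.27 (SE 0.13; adjusted p = 0.9997 by edgeR). The gap between the genotypes was small beside the spread, since the lowest QKO liver was at 12.1 CPM and the highest WT liver at 11.9 CPM. Abhd17b had the highest log2 fold change of the family in liver, 0.64 (SE 0.27; adjusted p = 0.9997 by edgeR), but its libraries varied most. They were at 13.7, 13.9, 21.4 and 30.4 CPM in QKO livers, against 9.60, 11, 12.6 and 17.9 CPM in WT livers, which overlap. Without QKO liver 4 its log2 fold change was 0.35, and without WT livers 3 and 4 it was 0.95. With the replicate number as a block it was 0.60 (SE 0.14; adjusted p = 0.681 by edgeR). With the animal series as a term it was 0.60 (SE 0.16; adjusted p = 0.763 by edgeR), so part of the spread went with replicate number and series.

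The remaining members overlapped between the liver groups. Abhd17a averaged 46.9 ± 14.7 CPM in QKO livers and 37.3 ± 8.53 CPM in WT livers, a log2 fold change of 0.33 (SE 0.22). QKO liver 3 was high for Abhd17a at 68.6 CPM, and without it the log2 fold change was 0.09. Lypla1 was at 56.8, 72.3, 110.4 and 77.7 CPM in QKO livers, against 93.7, 75.8, 74.8 and 62.1 CPM in WT livers. It too was highest in QKO liver 3, and its log2 fold change of 0.05 (SE 0.20) was -0.15 without that library, -0.39 within series 47 and 0.47 within series 48. Lypla2, Abhd17c and Abhd10 had log2 fold changes of 0.13 (SE 0.13), 0.19 (SE 0.14) and 0.17 (SE 0.18). The protein-coding count of QKO liver 3, 22.8 M of 48.3 M counts, was the lowest among QKO livers; its part in these values was not tested.

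Of the 8 members, 0 passed an adjusted p of 0.05 in liver with edgeR and 0 with DESeq2, where 15 genes or 0.0846% of those tested passed with edgeR and 50 with DESeq2. All 8 had a log2 fold change above 0, with a median of 0.23, while 48.8% of all genes tested were above 0 and their median was -0.01. With the protein-coding total per length as the scale, Lypla1 was at -0.02 and the other 7 stayed above 0. Every QKO liver lay above every WT liver for 2 of 8 members, Ppt1 and Ppt2, and for 0.964% of all genes. An unadjusted p under 0.05 with a higher level was reached by 2 of 8 members, Ppt1 and Abhd17b, and by 1.58% of all genes.

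**Figure D2:**
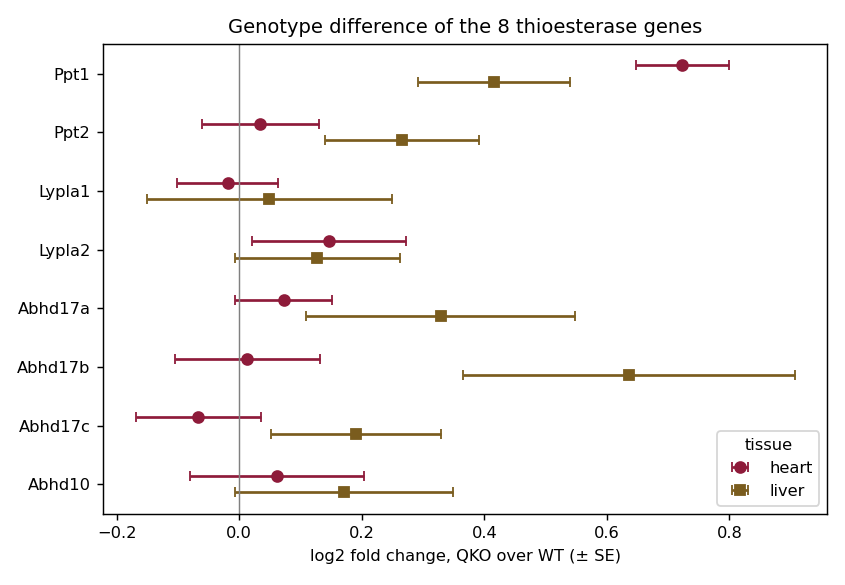
Log2 fold change of QKO over WT for each member (points) with its SE (bars), heart as circles and liver as squares. Ppt1 in heart, at 0.72, stands apart from the other heart values of -0.07 to 0.15, and all 8 liver values lie above 0.

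Set side by side, the log2 fold change of Ppt1 was 0.72 in heart and 0.42 in liver, a difference of heart change minus liver change of 0.30 (SE 0.14). For Abhd17b the difference was -0.63 (SE 0.32), and for the other 6 it ran from -0.27 for Abhd17c to 0.01 for Lypla2. These differences hold the heart contrast that chose the family, so they are given with no test.

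Levels of different members were compared within a group as TPM (transcripts per 1 M, over protein-coding genes), which divides counts by gene length. Ppt1 was first in QKO hearts, at 69.0, 66.8, 64.2 and 63.5 TPM, above Abhd17a at 49.0 to 59.6 TPM. In WT hearts the order of these 2 was the other way, with Abhd17a at 48.5 to 52.8 TPM and Ppt1 at 44.3, 36.2, 35.7 and 40.8 TPM. The ranges of Ppt1 and Abhd17a did not overlap in either group. Below them Ppt2, Lypla2 and Lypla1 followed at means of 29.7, 25.8 and 25.1 TPM in QKO hearts and 28.7, 22.9 and 25.01 TPM in WT hearts, neighbours that overlapped. Abhd17c, Abhd17b and Abhd10 were lowest, at 14.1, 12.1 and 10.3 TPM in QKO hearts and 14.5, 11.8 and 9.72 TPM in WT hearts. Ppt1 made up 27.9% of the summed TPM of the 8 members in QKO hearts (25.9% to 29.8%) and 19.4% in WT hearts (18.3% to 21.9%), and the sum itself was 236.4 ± 10.2 TPM in QKO hearts and 202 ± 8.42 TPM in WT hearts (SD, n = 4 each).

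Liver had another order. Abhd17a led with 107 to 184 TPM in QKO livers and 83.8 to 148 TPM in WT livers, above every other member. Lypla1 came second, at means of 48.8 TPM in QKO livers and 49.4 TPM in WT livers, followed by Lypla2, at 36.6 TPM in QKO livers and 35.0 TPM in WT livers. Ppt1 came next, at 33.5, 32.3, 27.5 and 32.3 TPM in QKO livers and 26.9, 22.2, 23.6 and 25.2 TPM in WT livers. Its range overlapped those of Lypla2 and Abhd17b in QKO livers and that of Abhd17b in WT livers. Abhd10 was lowest, at 3.59 to 4.46 TPM in QKO livers and 2.88 to 4.54 TPM in WT livers, with no overlap with its neighbour Abhd17c. Ppt1 made up 9.83% of the family's summed TPM in QKO livers (7.12% to 11.2%) and 8.78% in WT livers (7.82% to 10.8%).

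**Figure D3:**
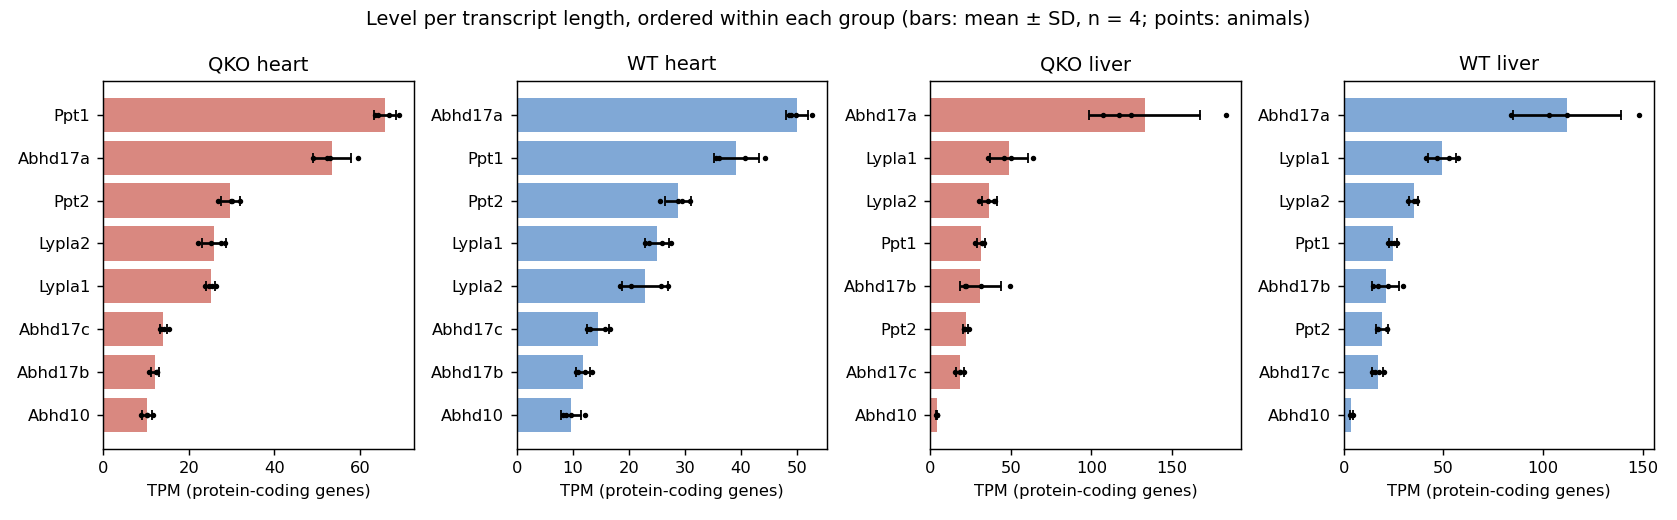
TPM of each member, ordered within each of the 4 groups (bars: mean and SD; points: 4 animals). Ppt1 leads in QKO hearts at 65.9 TPM and is second to Abhd17a in WT hearts at 39.2 TPM, while Abhd17a leads in both liver groups.

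Between tissues of WT mice, 5 members were lower in heart and 1 was higher. With CPM scaled by TMM over all 16 libraries, Abhd17a averaged 8.11 ± 0.155 CPM in WT hearts and 27.2 ± 6.17 CPM in WT livers (SD, n = 4 each), a log2 fold change of -1.74 (SE 0.15; adjusted p = 1.4e-06, edgeR's quasi-likelihood test). Lypla1 averaged 18.8 ± 2.21 CPM in WT hearts and 55.9 ± 9.80 CPM in WT livers, with a log2 fold change of -1.56. Abhd17b, Lypla2 and Abhd17c had log2 fold changes of -1.40, -1.19 and -0.79. Abhd10 averaged 3.78 ± 0.703 CPM in WT hearts and 2.20 ± 0.279 CPM in WT livers, a log2 fold change of 0.79 (SE 0.18; adjusted p = 0.0021). Ppt2 did not pass, at 7.88 ± 0.642 CPM in WT hearts and 7.85 ± 0.630 CPM in WT livers (log2 fold change 0.01, SE 0.11). Ppt1 was at 15.1 ± 1.37 CPM in WT hearts and 14.2 ± 1.78 CPM in WT livers (log2 fold change 0.10, SE 0.12). It is described without a test, because its WT heart values were part of the contrast that chose the family. With Ppt1 left aside, the 5 lower members and Abhd10 passed and Ppt2 did not, where 72.5% of the 18204 genes tested passed.

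In QKO mice the same 5 members were lower in heart and Abhd10 was higher, by log2 fold changes of -2.01 for Abhd17b, -1.98 for Abhd17a, -1.62 for Lypla1, -1.16 for Lypla2, -1.04 for Abhd17c and 0.69 for Abhd10, each with an adjusted p of 0.00102 or less by edgeR. Ppt1 is described without a test, because it holds the heart values that chose the family. It was at 26.2, 25.7, 22.9 and 25.1 CPM in QKO hearts and 20.1, 19.5, 17.8 and 19.0 CPM in QKO livers, a log2 fold change of 0.42. Ppt2 had a log2 fold change of -0.21 (SE 0.11, adjusted p = 0.099). With Ppt1 left aside, these 5 members and Abhd10 passed and Ppt2 did not, where 74.3% of all genes passed. The scale mattered here. Scaling to the protein-coding total per length instead of TMM moved the median of all genes in heart over liver by 0.64 in WT and 0.71 in QKO. Under it Ppt1 was at 0.68 in WT, again given without a test. Ppt2 at 0.59 in WT was past the threshold, and Abhd17c at -0.22 in WT no longer was. In QKO Ppt2 was at 0.44. The other 5 members kept their direction and their call in both genotypes, and the 8 members moved by 0.57 to 0.58 in WT and by 0.64 to 0.66 in QKO, close to the move of that median.

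**Figure D4:**
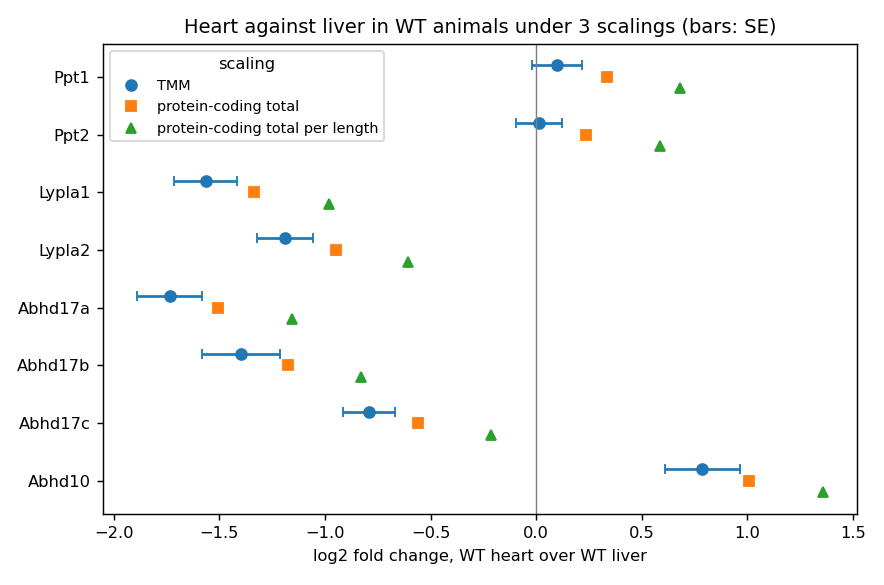
Log2 fold change of WT heart over WT liver for each member under 3 scalings, with SE for TMM. Lypla1, Lypla2, Abhd17a, Abhd17b and Abhd17c lie below 0 and Abhd10 above 0 under all 3, while Ppt1 and Ppt2 lie near 0 under TMM, at 0.10 and 0.01, and higher under the others.

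The rest of the palmitoylation machinery gave no call in either tissue with edgeR or DESeq2. Of the DHHC palmitoyltransferases and their partners, 0 of 21 tested passed in heart and 0 of 20 in liver, with median log2 fold changes of -0.001 in heart and 0.01 in liver. Zdhhc4 had a log2 fold change of 0.34 (SE 0.19) and Zdhhc14 of -0.27 (SE 0.17) in heart, and Zdhhc13 of 0.33 (SE 0.26) and Zdhhc14 of 0.26 (SE 0.26) in liver. Other alpha/beta hydrolase genes had 0 of 16 called in each tissue, and Abhd3 and Abhd14a in heart were at 0.31 (SE 0.19) and -0.22 (SE 0.16), while Abhd15 and Abhd18 in liver were at 0.25 (SE 0.23) and -0.20 (SE 0.20). Genes for known palmitoylated proteins had 0 of 20 called in heart and 0 of 19 in liver. Among them the endothelial nitric oxide synthase Nos3 averaged 8.79 ± 0.470 CPM in QKO hearts and 7.76 ± 1.39 CPM in WT hearts, and Gnaq, a G protein subunit, had a log2 fold change of -0.17 (SE 0.09). In liver Cav1, the caveolar coat protein, averaged 2.24 ± 0.555 CPM in QKO and 3.76 ± 1.57 CPM in WT, and the fatty acid receptor gene Cd36 averaged 71.3 ± 11.2 CPM in QKO and 87.7 ± 11.99 CPM in WT (SD, n = 4 each). At an unadjusted p under 0.05 with edgeR, these 3 lists had 1 gene each in heart, and 0, 0 and 1 in liver, where 7.19% of all genes tested in heart and 3.29% in liver had such a p. At an adjusted p of 0.05 those shares were the 0.165% and 0.0846% given above.

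Other genes of the disease linked to PPT1, and a list of lysosomal genes, gave no call with either tool. Of 12 other neuronal ceroid lipofuscinosis genes, 0 passed in heart and 0 in liver, with medians of 0.04 in heart and -0.03 in liver. The lysosomal membrane gene Cln3 was at a log2 fold change of 0.31 (SE 0.23) and Cln6 at 0.29 (SE 0.14) in heart, and Kctd7 at -0.36 (SE 0.28) and progranulin (Grn) at 0.21 (SE 0.16) in liver. Of 50 lysosomal hydrolase, membrane and sorting genes, 0 passed in either tissue, with medians of -0.01 in heart and 0.03 in liver. At an unadjusted p under 0.05 with edgeR, the first of these lists had 1 gene in heart and 0 in liver, and the second 2 in heart and 1 in liver, beside the 7.19% in heart and 3.29% in liver of all genes. The protease gene Ctss, which is abundant in macrophages, averaged 3.61 ± 0.254 CPM in QKO hearts and 4.61 ± 0.422 CPM in WT hearts. Its log2 fold change was -0.36 (SE 0.10, adjusted p = 0.449 by edgeR). Ctsc had a log2 fold change of -0.30 (SE 0.15) in heart. In liver the sulfatase gene Arsb averaged 4.75 ± 1.31 CPM in QKO and 7.23 ± 0.562 CPM in WT (log2 fold change -0.60, SE 0.20, adjusted p = 0.9997 by edgeR). Summed over 10 macrophage markers, the level was 309 to 403 CPM in QKO hearts and 372 to 586 CPM in WT hearts. In liver this sum was 869 to 1170 CPM in QKO and 878 to 1329 CPM in WT, so the genotypes overlapped in both tissues. The part of macrophage content in the values of these genes was not tested.

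Of 12 acyl-CoA thioesterase genes, 0 passed in heart and 0 in liver with edgeR (0 in heart and 1 in liver at an unadjusted p under 0.05, beside 7.19% and 3.29% of all genes), and DESeq2 called 1, Acot11 in liver. In heart Them4 had a log2 fold change of 0.16 (SE 0.14) and Acot1 of -0.14 (SE 0.19). In liver Acot11 averaged 1.67 ± 0.277 CPM in QKO and 6.02 ± 3.11 CPM in WT, with overlap and a log2 fold change of -1.85 (SE 0.38, adjusted p = 0.261), and Acot1 averaged 36.6 ± 17.9 CPM in QKO and 26.9 ± 15.2 CPM in WT (SD, n = 4 each).

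Around Ppt1 on chromosome 4, none of the 3 nearest genes tested on each side passed in heart, nor did the 4 of these 6 that were tested in liver. Downstream of it, Cap1 averaged 9.80 ± 0.847 CPM in QKO hearts and 10.1 ± 0.668 CPM in WT hearts, and Trit1, a tRNA-modifying enzyme gene, averaged 1.30 ± 0.175 CPM in QKO hearts and 1.22 ± 0.392 CPM in WT hearts. The lipid transporter gene Mfsd2a was at 0.104 ± 0.0585 CPM in QKO hearts and 0.350 ± 0.254 CPM in WT hearts (log2 fold change -1.70, SE 0.59, adjusted p = 0.655), and in liver at 103.5 ± 9.29 CPM in QKO and 104.6 ± 14.1 CPM in WT. Upstream of it, Rlf had a log2 fold change of -0.08 (SE 0.07) in heart and 0.08 (SE 0.16) in liver, and the pseudogenes Gm12896 and Gm12895 were at -1.16 (SE 0.60) and -1.10 (SE 0.65) in heart. Within 20 Mb of Ppt1, 2 of the 441 other genes tested in heart passed, and outside this window 25 of 16532 did (0.151%). The 2 in the window were Hyi and Tceanc2, whose starts lie at -4.48 Mb and -15.7 Mb from that of Ppt1. Hyi was at 1.47 ± 0.0701 CPM in QKO hearts and 0.562 ± 0.0982 CPM in WT hearts. Tceanc2 was at 3.59 ± 0.274 CPM in QKO hearts and 6.10 ± 0.366 CPM in WT hearts (SD, n = 4 each). In liver 1 of the 472 other genes in the window passed, Dab1, and outside it 14 of 17265 did (0.0811%). Whether calls gather near Ppt1 was not tested.

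Over the 16 libraries, the gene most like Ppt1 was Gdpd3, which encodes a lysophospholipase D. Likeness was Pearson's r of log2(CPM + 1) among 12667 protein-coding genes tested in both tissues, and for Gdpd3 r was 0.903. The libraries fall into the 4 groups and share animals, so r is a description of how the groups order. On the scale used for r, TMM over 16 libraries, Gdpd3 averaged 7.78 CPM in QKO hearts and 0.507 CPM in WT hearts. On that scale it averaged 4.305 CPM in QKO livers and 0.255 CPM in WT livers. Scaled within each tissue, Gdpd3 was at 6.71, 5.27, 5.76 and 5.02 CPM in QKO hearts, against 0.227, 0.544, 0.389 and 0.325 CPM in WT hearts. In QKO livers, scaled within liver, it was at 4.38, 4.60, 6.65 and 7.85 CPM, against 0.279, 0.372, 0.344 and 0.402 CPM in WT livers. Values scaled within a tissue do not compare heart with liver. Every QKO library was above every WT library in both tissues, by log2 fold changes of 4.02 (SE 0.19) in heart and 4.05 (SE 0.26) in liver. The next 4 were Pcdh17 (r = 0.783), a protocadherin gene, Slc15a2 (r = 0.777), a peptide transporter gene, Chac1 (r = 0.719), whose enzyme degrades glutathione, and Dynlt1b (r = 0.718), a dynein light chain gene. The log2 fold changes in heart were 0.67 (SE 0.21) for Pcdh17, 1.52 (SE 0.40) for Slc15a2, 1.00 (SE 0.20) for Chac1 and 1.76 (SE 0.41) for Dynlt1b. In liver they were 0.54 (SE 0.26), 0.85 (SE 0.56), 0.99 (SE 0.61) and 0.82 (SE 0.37) in the same order. Dynlt1b was low, at means of 0.496 CPM in QKO hearts and 0.143 CPM in WT hearts (TMM over 16 libraries). Among the other members of the family r with Ppt1 was 0.400 for Abhd10 and 0.116 for Ppt2, and it was -0.24 to -0.34 for Lypla1, Lypla2, Abhd17a, Abhd17b and Abhd17c.

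**Figure D5:**
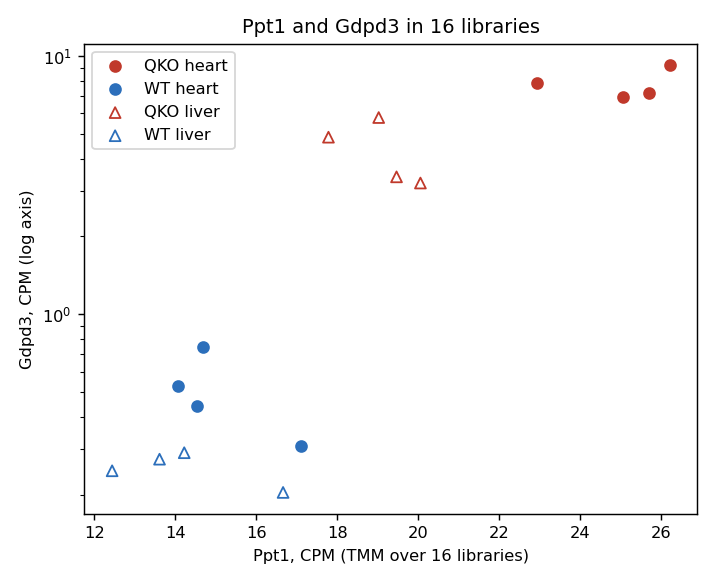
CPM of Gdpd3 (log axis) against CPM of Ppt1, both scaled by TMM over 16 libraries; filled circles are heart and open triangles liver, red QKO and blue WT. The 8 QKO libraries lie at 17.8 to 26.2 CPM of Ppt1 and the 8 WT libraries at 12.4 to 17.1 CPM.

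The spread within groups differed by member and tissue. The coefficient of variation (CV, SD over mean) of Ppt1 was 5.69% in QKO hearts and 8.85% in WT hearts, and 4.55% in QKO livers and 12.03% in WT livers. Lypla1 varied by 1.68% in QKO hearts and 11.7% in WT hearts, and by 28.4% in QKO livers and 17.0% in WT livers. Abhd17b varied by 8.09% in QKO hearts and 6.99% in WT hearts, and by 39.8% in QKO livers and 28.3% in WT livers. Over the family the median CV was 6.89% in QKO hearts, 10.3% in WT hearts, 13.3% in QKO livers and 12.5% in WT livers. The ratio of Ppt1 to Ppt2 by TPM was 2.30, 2.49, 2.13 and 1.99 in QKO hearts and 1.74, 1.22, 1.24 and 1.32 in WT hearts. These heart ratios hold the Ppt1 values that chose the family, so nothing is read from their difference. In liver the ratio was 1.39, 1.54, 1.30 and 1.49 in QKO and 1.64, 1.30, 1.095 and 1.17 in WT, with overlap.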

How the data were processed

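Libraries were made from total RNA depleted of ribosomal RNA with a stranded kit and sequenced in 75 bp pairs, per the labels' protocols. The deposited values were raw counts per gene made by the authors. The submitters' processing notes list the build mm10 and, unversioned, HISAT2 and featureCounts beside limma, cutadapt, FastQC, bcl2fastq and CASAVA; the annotation and strand setting are not given in the sources used here. Of 48709 identifiers, 48349 matched GENCODE M21 without version, and 0 columns were left over. Total counts were 37.9 M to 72.6 M.

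Each tissue, and each genotype for heart against liver, was fitted apart with edgeR 4.0.16 (R 4.3.3): TMM, filterByExpr by group, quasi-likelihood F test, Benjamini-Hochberg adjustment over all genes, threshold 0.05, SE as the log2 fold change over the square root of F. The fit was tested on simulated data. CPM used TMM within a tissue for genotypes and over all 16 libraries for tissues; TPM used exon-union lengths of protein-coding genes. The labels name separate animals as replicates. The labels do not say that the replicate number pairs QKO and WT animals, and genotypes were fitted unpaired. Same-number r was -0.13 to 0.16 in liver and 0.09 to 0.47 in heart, so a shared effect of the number in heart is not excluded. The fit with a replicate block is among the alternatives. Heart and liver of 1 animal are paired by label (r 0.04 to 0.16), and with the animal as a block no member's call changed.

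The members and lists were chosen with earlier results of these data known. Named were all members, the 5 genes most like Ppt1, the 3 tested genes on each side of it, and of each list the genes past the threshold or else the 2 with the largest change at a mean of 1 CPM or more. 1 further gene that this rule names is not reported here. Gene lists were counted and given by median. Hyi, Tceanc2 and Dab1 were named after their values were seen. Alternatives were DESeq2 1.42.0, other scalings and filters, left-out libraries, blocks, the animal series and 1 joint fit. The protein-coding scalings, library sizes without ribosomal RNA loci, and the alternatives of the tissue difference in genotype change were chosen after seeing the data.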

Additional observations from a re-analysis of the deposited data

Results flagged for a closer look

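Lypla2, the gene of a cytosolic acyl-protein thioesterase, had 1 library far from the other 3 in QKO livers. That library, QKO liver 4, was at 13.6 CPM, while the other QKO livers were at 18.4, 18.1 and 17.8 CPM and the WT livers at 15.1, 17.0, 14.8 and 15.3 CPM. Its gap to the nearest QKO liver, as a share of the range, was above Dixon's critical value for 4 samples. The 8 members in 4 groups made 32 such groups, of which chance flags about 1 in 20.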

How the results depend on the processing

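No member was called in liver under any of the 22 alternatives run there. The log2 fold change of Ppt1 ran from 0.34 to 0.50 in liver, and in heart, where its value chose the family and nothing is read from it, from 0.69 to 0.79. With the replicate block it was 0.73 in heart and 0.42 in liver, and the block changed no member's call in liver. Between tissues, 72.5% of all genes passed in WT and 74.3% in QKO in the main fits, and the calls below stand beside those shares. In WT, with Ppt1 left aside, Lypla1, Lypla2, Abhd17a, Abhd17b and Abhd10 were called under all 14 alternatives. By protein-coding counts per length Abhd17c was not called in WT and Ppt2 was. In QKO, with Ppt1 left aside, Lypla1, Lypla2, Abhd17a, Abhd17b, Abhd17c and Abhd10 were called under all 13 alternatives. Ppt2 was called in QKO by protein-coding counts per length, though not in the main fit. Ppt1 in WT heart over liver was 0.68 by protein-coding counts per length.

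Among the tested comparisons directions turned for 2 members. Lypla1 in liver was -0.018 by protein-coding counts per length, -0.39 within series 47 and -0.090 without WT livers 3 and 4, and -0.15 to 0.19 with 1 library left out. Ppt2 in WT heart over liver was -0.015 with no filter and -0.018 without ribosomal RNA loci, and -0.057 to 0.058 with 1 animal left out. In QKO it was 0.44 by protein-coding counts per length and 0.092 by protein-coding counts. The cause was not tested. In heart the genotype values of 5 members near 0 also changed sign, with ranges of -0.15 to 0.26 for Abhd10, -0.03 to 0.07 for Ppt2, -0.10 to 0.04 for Lypla1, -0.04 to 0.06 for Abhd17b and -0.14 to 0.002 for Abhd17c.

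Counts over all genes moved more. In liver 15 genes passed, against 50 with DESeq2, 44 with all libraries in 1 fit, 33 within series 48 and 9 of protein-coding genes alone. In heart 28 passed, against 64 with DESeq2, 102 with no filter, 108 within series 47, 50 with the replicate block, 16 in the joint fit, and 18 without QKO heart 2 or QKO heart 4. The lowest protein-coding count was 9.21 M, in WT heart 2, and Abhd10 had 669 counts over the WT hearts together; the median SE of the members was 0.10 in heart and 0.16 in liver, and the part of depth in it was not tested.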
